A study of Mus musculus with 12 samples.

Results

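G protein-coupled receptor genes were taken from the table by a rule on gene symbols, and had to lie above 0 in at least 4 libraries. The rule named the numbered Gpr and Gprc genes, the Adgr adhesion receptors and the receptor activity-modifying proteins (the Ramp genes). It also named some receptors for purines, monoamines, acetylcholine, glutamate, GABA, lipid mediators, formyl peptides and neuropeptides. Other receptors of these classes, such as those of the Lpar genes, were not named in it. The rule left out Adgre1. It found 63 genes among the 10749 listed, and 40 of them were above 0 in every one of the 12 libraries. A further 7 genes matched by name but were above 0 in at most 3 libraries (Adgrg5, Fpr3, Gpr26, Gpr50, Gpr63, Gpr82 and Oprm1), while Drd4, just inside the limit, was above 0 in 4. All 63 lie on the plus strand of the genome, as did 10573 of the 10579 listed genes with an annotated position. Of the annotated genes whose symbols match the rule, 95 lie on the plus strand and 109 on the minus strand, so the receptor genes described here come from 1 strand and those of the other strand were not analysed here.

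G protein-coupled receptors are membrane proteins that bind a ligand outside the cell, such as a transmitter, a peptide, a lipid or a neighbouring cell's surface protein, and activate a heterotrimeric G protein inside it. Coupling to Gs raises cyclic AMP, coupling to Gi lowers it, and coupling to Gq activates phospholipase C. In the dentate gyrus, the hippocampal region in which neurons continue to be born in adult mice, neurons carry receptors for glutamate, GABA, acetylcholine and neuropeptides. Some receptors for nucleotides and lipid mediators, though not these alone, are known from microglia, the resident macrophages of the brain.

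The libraries were made from dentate gyrus cells of 8-week-old LPA1-GFP mice, a bacterial artificial chromosome line (Tg(Lpar1-EGFP)GX193Gsat) made on an FVB/N and Swiss Webster background and rederived into C57BL/6, in which the regulatory region of Lpar1 drives green fluorescent protein. All 3 groups come from this line and no treatment is named. The stem group holds cells sorted as GFP-positive, EGFR-positive and Prominin1-positive, the progenitor group pools the other 3 GFP-positive combinations of those surface markers, and the niche group holds GFP-negative cells. Each group has 4 libraries, and RNA of 1000 cells was amplified before sequencing. The labels do not say whether libraries of a group came from separate animals, so a p-value here weighs a difference only against the scatter of these libraries, which may be technical.

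Total reads ran from 7597256 to 22854036 per library, so that 3 reads, the most that a count of 0 allows, correspond to 0.131 to 0.395 CPM, the read count relative to the library's total (counting error only). Levels below are RPKM, the read count relative to both the gene's length and the library's total, after scaling of the libraries by the trimmed mean of M values (TMM). The TMM factor of niche library 1 was 0.418, against 0.820 to 1.25 in the other 11. Summed red cell markers, 4 listed genes, reached 1078460 RPKM in that library, 37243 to 180599 in the other niche libraries and 223 to 3389 in the stem and progenitor libraries, and their part in the results below was not tested. Egfr, the gene of a sorted surface marker, was higher in the stem than in the progenitor libraries (log2 fold change 2.64 ± 0.68 SE, limma adjusted p = 0.0272). This was not called without progenitor library 1 (0.103) or 3 (0.0728) or any 1 stem library (0.0597 to 0.076). Summed over 9 listed genes, markers of neural stem and progenitor cells reached 443 to 770 RPKM in the stem, 798 to 1594 in the progenitor and 141 to 255 in the niche libraries. The genes of this sum were split between stem and progenitor libraries: Rrm2 and Pclaf were called higher in stem, Tubb3 lower, and 6 were not called. The Pclaf call was lost without stem library 1 (0.0529), 3 (0.0938) or 4 (0.0894) or progenitor library 2 (0.083) or 3 (0.0839). Over 7 listed genes, markers of microglia and macrophages reached 2372 to 9404 RPKM in the stem libraries, highest in library 2, 128 to 277 in the progenitor and 3354 to 5794 in the niche libraries.

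The promoters of 4 receptor genes are shown because these genes had the largest changes among the receptor genes with a matching entry: Ptafr and Gpr65 for the stem group, Sstr2 for the progenitor group and Adora3 for the niche group. Each is the run of 250 bases just upstream of the RefSeq start (GRCm38.p6), read 5′ to 3′ on the plus strand. Capitals mark a match to GAGGAA or to its longer form GAGGAAGT, both read on the opposite strand, and in Sstr2 the palindrome TGACGTCA. These lie at chr4:132563817-132564066 for Ptafr, chr12:98268385-98268634 for Gpr65, chr3:105904171-105904420 for Adora3 and chr11:113619077-113619326 for Sstr2.
Ptafr: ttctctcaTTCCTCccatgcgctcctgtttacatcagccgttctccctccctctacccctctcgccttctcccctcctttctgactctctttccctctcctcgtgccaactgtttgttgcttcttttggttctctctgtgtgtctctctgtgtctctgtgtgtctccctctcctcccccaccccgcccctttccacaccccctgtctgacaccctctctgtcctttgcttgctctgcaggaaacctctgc
Gpr65: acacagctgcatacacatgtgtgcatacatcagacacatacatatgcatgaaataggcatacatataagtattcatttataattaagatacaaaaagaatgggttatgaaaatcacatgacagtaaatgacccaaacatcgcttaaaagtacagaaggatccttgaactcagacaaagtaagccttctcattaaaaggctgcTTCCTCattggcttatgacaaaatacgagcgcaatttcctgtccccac
Adora3: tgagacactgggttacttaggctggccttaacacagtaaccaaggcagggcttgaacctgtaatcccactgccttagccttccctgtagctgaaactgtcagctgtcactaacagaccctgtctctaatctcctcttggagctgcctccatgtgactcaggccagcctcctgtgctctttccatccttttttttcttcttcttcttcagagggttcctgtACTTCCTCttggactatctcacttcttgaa
Sstr2: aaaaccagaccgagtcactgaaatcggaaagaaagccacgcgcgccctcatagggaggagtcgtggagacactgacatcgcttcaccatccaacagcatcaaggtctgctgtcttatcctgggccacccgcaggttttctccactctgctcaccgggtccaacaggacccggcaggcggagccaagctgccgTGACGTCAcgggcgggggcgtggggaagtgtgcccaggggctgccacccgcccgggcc
The match began 242 bases before the start in Ptafr, 48 in Gpr65, 30 in Adora3 and 58 in Sstr2. In all, 6 motifs were searched on both strands in the 32851 RefSeq promoters. Of the 63 receptor genes, 47 had an entry among them, as had 20 of the 26 that passed the test in at least 1 comparison. A gene was counted when any of its promoters matched, whereas the percentages are shares of promoters, so the units differ. GAGGAA, the core bound by the myeloid factor PU.1, occurred in 9 of those 20 (Adgrl4, Adora3, Gpr146, Gpr65, Grm7, Npy1r, Ptafr, Ramp3 and S1pr3) and in 23.3% of all promoters. GAGGAAGT, which contains both GAGGAA and AGGAAGT, occurred in Adora3 and in 2.44% of all promoters. Among the 20, AGGAAGT was found only in Adora3, as part of that same match, against 7.69% of all promoters. TGACGTCA, the full cyclic AMP response element, occurred in Sstr2 and in 1.55% of all promoters. TATAAA occurred in Gpr165, Gpr65 and Oprl1, against 12.4% of all promoters, and CACGTG in 0 of the 20, against 6.02%. A match describes these letters and does not show that a factor binds there.

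Of the 63 receptor genes, 53 passed the filter on low reads and were tested, and 26 of them passed the test (were called) in at least 1 comparison. Between stem and progenitor libraries 11 of 53 were called, 6 higher in stem (Ptafr, Gpr160, Gpr34, Gpr65, Chrm4 and Gpr165) and 5 lower (Sstr2, Ramp1, S1pr3, Gabbr1 and Gpr75), which is 20.8% against 7.11% of all 8360 genes tested (3.71% higher and 3.4% lower). Between stem and niche libraries 23 of 53 were called, 6 higher and 17 lower, or 43.4% against 21.6% of all genes (10.9% higher and 10.7% lower). Between progenitor and niche libraries 17 of 53 were called, 1 higher and 16 lower, or 32.1% against 11.5% of all genes (5.68% higher and 5.78% lower). The median log2 fold change of the tested receptor genes was -0.08, -0.85 and -0.79 in these comparisons, beside -0.06, 0.09 and 0.15 over all genes. The comparisons share libraries pairwise and are not independent of each other. Without TMM scaling the medians over all genes moved to 0.58 for stem against niche and 0.62 for progenitor against niche, and the receptor genes called higher and lower became 6 and 3 for stem against progenitor, 6 and 16 for stem against niche and 3 and 13 for progenitor against niche. Over all genes, 2017 were then called higher and 586 lower between stem and niche, in place of 910 and 896, and 1525 higher and 314 lower between progenitor and niche, in place of 475 and 483. No called receptor gene changed direction with that scaling. Counts also moved with single libraries: 7 receptor genes were called between stem and progenitor without progenitor library 2, 3 or 4, and 10 or 11 between progenitor and niche without progenitor library 3 or 2. Over all genes, calls between stem and progenitor went from 594 to 412, 410 and 475 without these libraries. Those between progenitor and niche went from 958 to 535 and 566.

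**Figure D1:**
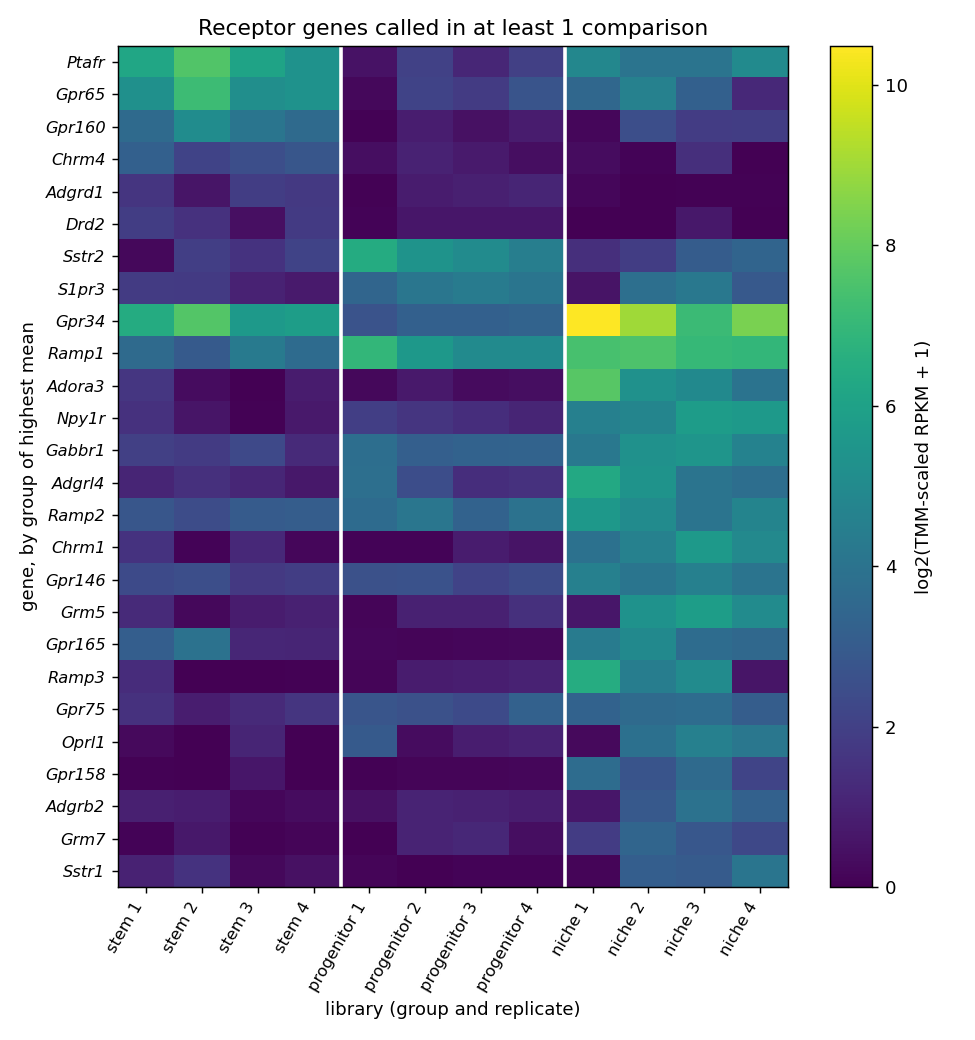
Levels of the 26 receptor genes called in at least 1 comparison, as log2(TMM-scaled RPKM + 1) by colour, with genes as rows ordered by the group of their highest mean and the 12 libraries as columns, white lines separating the groups. The 6 genes at the top have their highest mean in the stem libraries, Sstr2 and S1pr3 in the progenitor libraries and the other 18 in the niche libraries.

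Ptafr, Gpr160, Gpr65 and Chrm4 were higher in the stem libraries than in those of both other groups. Ptafr (chromosome 4, 132564067-132582683) encodes the receptor for platelet-activating factor, a lipid mediator of inflammation. Its level was 72.8, 195, 66.7 and 39.0 RPKM in stem libraries 1 to 4, 0.425, 3.10, 1.20 and 2.96 in the progenitor libraries and 27.5, 15.5, 15.6 and 31.3 in the niche libraries. The 3 groups did not overlap: every stem library lay above every niche library, and every niche library above every progenitor library. On the log2(RPKM + 1) scale Ptafr was higher in stem than in progenitor libraries by 4.89 ± 0.52 (SE, limma adjusted p = 5.8e-05) and than in niche libraries by 1.82 ± 0.52 (adjusted p = 0.021), and it was lower in progenitor than in niche libraries by -3.07 ± 0.52 (adjusted p = 0.00107). The call against the niche was lost without stem library 2 (adjusted p = 0.0806), niche library 2 (0.0627) or niche library 3 (0.0631), and with a pseudocount of 0.1 RPKM (0.0519).

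Gpr65 (chromosome 12, 98268635-98276644) encodes a receptor activated by protons. It was at 37.8, 143, 35.1 and 39.4 RPKM in the stem libraries, 0.179, 3.33, 2.57 and 5.68 in the progenitor libraries and 10.3, 23.3, 8.27 and 1.32 in the niche libraries. Stem library 2 stood far above the other 3, yet all 4 lay above every other library. Gpr65 was higher in stem than in progenitor libraries by 4.01 ± 0.72 (adjusted p = 0.00272) and than in niche libraries by 2.61 ± 0.72 (adjusted p = 0.0168). Leaving out stem library 2 or niche library 4 ended the niche call (adjusted p = 0.0652 and 0.0564), as did a pseudocount of 0.1 RPKM (0.0515). Gm47566, a gene not analysed here, overlaps its exons on the other strand, and the use of strand in the counting is not given in the sources used here, so reads of the pair cannot be told apart. Gpr160 (chromosome 3, 30855950-30897192), an orphan receptor, was at 11.4, 33.7, 16.0 and 11.5 RPKM in the stem libraries, 0.0543, 0.784, 0.386 and 0.731 in the progenitor libraries and 0.146, 4.68, 2.65 and 2.72 in the niche libraries. The lowest stem library lay above the highest library of the other groups. The differences were 3.58 ± 0.54 against progenitor (adjusted p = 0.0008) and 2.50 ± 0.54 against niche libraries (adjusted p = 0.00371).

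Chrm4 (chromosome 2, 91927249-91928688), the Gi-coupled M4 muscarinic acetylcholine receptor, read 8.34, 3.36, 4.81 and 6.01 RPKM in the stem libraries, from 56 to 129 reads. It was at 0.305, 1.03, 0.697 and 0.294 in the progenitor libraries and 0.274, 0.088, 1.66 and 0 in the niche libraries, of which 3 held at most 2 reads. All stem libraries were above all others, and the differences were 2.04 ± 0.43 against progenitor (adjusted p = 0.00711) and 2.20 ± 0.43 against niche libraries (adjusted p = 0.00158). Between progenitor and niche libraries the difference in Chrm4 was 0.17 ± 0.43 (adjusted p = 0.841). Along with Gpr160 it was called under every alternative in both stem comparisons.

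Gpr34 and Gpr165, both on chromosome X, were between the other groups in the stem libraries and highest in the niche libraries. Gpr34 (13632089-13640858) encodes a receptor for lysophosphatidylserine that is abundant in microglia. It was at 85.2, 206, 48.8 and 55.5 RPKM in the stem, 5.51, 8.16, 8.28 and 9.21 in the progenitor and 1430, 509, 141 and 331 in the niche libraries. The progenitor libraries lay below all others, and stem library 2 lay above niche library 3. Gpr34 was higher in stem than in progenitor libraries by 3.28 ± 0.58 (adjusted p = 0.00244), lower than in niche libraries by -2.35 ± 0.58 (adjusted p = 0.00864), and lower in progenitor than in niche libraries by -5.63 ± 0.58 (adjusted p = 1.9e-05). Gpr165 (96713441-96719388), an orphan receptor, was at 7.84, 14.6, 1.20 and 1.11 RPKM in the stem, 0.138, 0.0963, 0.138 and 0.177 in the progenitor and 19.4, 30.4, 12.1 and 10.7 in the niche libraries. Stem libraries 1 and 2 were well above libraries 3 and 4. Gpr165 was lower in progenitor than in niche libraries by -3.96 ± 0.62 (adjusted p = 0.00056). The stem differences, 2.14 ± 0.62 against progenitor (adjusted p = 0.0484) and -1.82 ± 0.62 against niche (adjusted p = 0.0478), depended on single libraries. The former was lost without stem library 1 (0.16) or 2 (0.18), without any 1 progenitor library (0.102 to 0.117) and without niche library 3 (0.0571) or 4 (0.0552). The latter was lost without stem library 3 (0.157) or 4 (0.163), without any 1 progenitor library (0.0527 to 0.0648), without niche library 1 (0.0533), 2 (0.104) or 3 (0.0504), and without TMM scaling (0.151).

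Markers of microglia and macrophages differed between the groups too. All 7 tested markers were higher in stem than in progenitor libraries and 6 of 7 were lower in progenitor than in niche libraries. Itgam was not called between stem and progenitor without stem library 2 (adjusted p = 0.0548) or progenitor library 1 (0.0517). Between stem and niche libraries Trem2 and Ctss were lower in stem (both not called without stem library 4, adjusted p = 0.0647 and 0.0713, Ctss not without stem library 3, 0.0662, and neither without TMM scaling, 0.0962 and 0.19) and Mrc1, a marker of macrophages outside the brain tissue proper, was higher in stem. The other 4 tested markers were not called between stem and niche libraries. Mrc1 was at 354 ± 264 RPKM (SD, n = 4) in the stem, 9.10 ± 4.45 in the progenitor and 8.43 ± 3.83 in the niche libraries. Stem library 2 held the highest level of Ptafr, Gpr65, Gpr34, Gpr160 and Gpr165 in its group, and the highest marker sum. For Chrm4, the highest stem library was library 1. The part of the cells carrying these markers in the results was not tested, and in sorted bulk samples fewer cells of a type and less RNA per cell cannot be told apart.

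**Figure D2:**
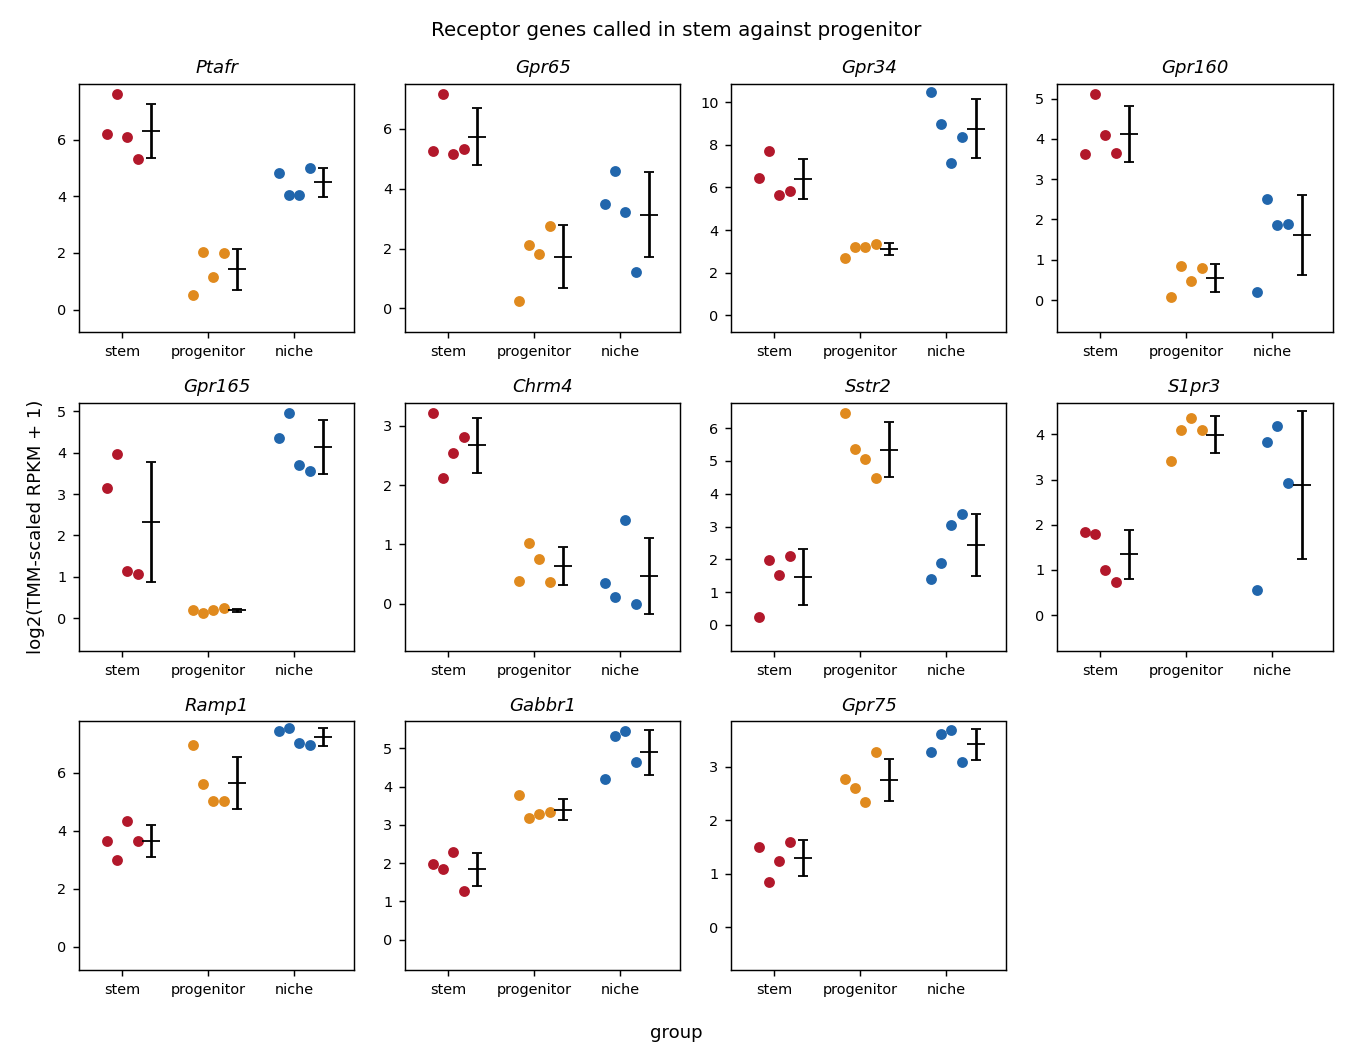
The 11 receptor genes called between stem and progenitor libraries, 1 panel a gene, with log2(TMM-scaled RPKM + 1) on the vertical axis and the 3 groups on the horizontal axis. Points are libraries in the order of their replicate numbers and bars the mean ± SD of the log2 values (n = 4); in all 11 panels the stem points do not overlap the progenitor points.

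Of the 53 receptor genes tested, Sstr2 was lower in stem than in progenitor libraries by the largest fold. Sstr2 (chromosome 11, 113619342-113626028) encodes the Gi-coupled somatostatin receptor 2. It was at 87.4, 40.4, 32.3 and 21.4 RPKM in the progenitor libraries, from 1303 to 2555 reads, against 0.174, 2.90, 1.88 and 3.29 in the stem and 1.65, 2.72, 7.24 and 9.5 in the niche libraries. Each progenitor library lay above all 8 others. The stem libraries were lower than the progenitor libraries by -3.89 ± 0.60 (adjusted p = 0.00088), and the progenitor libraries were higher than the niche libraries by 2.91 ± 0.60 (adjusted p = 0.00463). It was the only receptor gene called higher in progenitor than in niche libraries with TMM scaling, and both calls held under every alternative. Without TMM scaling, Drd3 and Gpr45 were called higher as well. Between stem and niche libraries the difference in Sstr2 was -0.98 ± 0.60 (adjusted p = 0.261). Sstr1 (chromosome 12, 58211772-58214444), another receptor for somatostatin, had a different pattern: 0 to 0.118 RPKM in the progenitor, 0.177 to 1.91 in the stem and 0.106, 7.66, 6.97 and 15.7 in the niche libraries. Sstr1 was called lower in progenitor than in niche libraries (-2.49 ± 0.64, adjusted p = 0.0208), although niche library 1 lay within the progenitor range. That call was lost without progenitor library 2 (0.0573), 3 (0.0552) or 4 (0.0546).

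S1pr3 (chromosome 13, 51408639-51422797), a receptor for the lipid sphingosine-1-phosphate, was at 9.57, 16.2, 19.7 and 16.0 RPKM in the progenitor, 2.55, 2.46, 1.01 and 0.673 in the stem and 0.468, 13.2, 17.2 and 6.56 in the niche libraries. Progenitor and stem libraries did not overlap, and niche library 1 lay below all others. S1pr3 was lower in stem than in progenitor libraries by -2.65 ± 0.67 (adjusted p = 0.0229). The call was lost without stem library 3 (0.0672) or 4 (0.0757) and without progenitor library 2 (0.0625), 3 (0.0709) or 4 (0.0569). Gm32834, not analysed here, overlaps S1pr3 on the other strand.

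Ramp1, Gabbr1 and Gpr75 were called lower in stem than in progenitor and niche libraries. Markers of other glia were lower in the stem libraries too. Of 7 tested astrocyte markers, 4 were lower in stem than in progenitor libraries (2 without stem library 2) and 7 than in niche libraries. Slc1a2 was not called against the niche without TMM scaling (adjusted p = 0.193). All 6 tested oligodendrocyte markers were lower in stem than in either group, and 5 of 6 oligodendrocyte precursor markers were lower than in niche libraries in both stem and progenitor libraries. The Cspg4 call for stem was lost without stem library 1, 2 or 4 or niche library 2, 3 or 4 (0.0523 to 0.0805). The Olig2 call for progenitor was lost without progenitor library 2, 3 or 4 (0.0757 to 0.131), among others. Without TMM scaling that Olig2 call (0.124) and the Olig1 call for stem (0.0924) were lost. Summed astrocyte markers reached 564 to 1157 RPKM in the stem, 3407 to 4896 in the progenitor and 4917 to 6523 in the niche libraries, and summed oligodendrocyte markers 146 to 614, 2173 to 6186 and 2624 to 5839. Summed precursor markers reached 24.2 to 43.2, 15.7 to 48.1 and 135 to 275 RPKM. Their part in the receptor differences was not tested. Ramp1 (chromosome 1, 91179822-91225196) encodes the accessory protein that turns the calcitonin receptor-like receptor into the receptor for calcitonin gene-related peptide. It was at 11.4, 6.93, 19.2 and 11.6 RPKM in the stem, 122, 47.4, 31.5 and 31.5 in the progenitor and 172, 185, 128 and 122 in the niche libraries. The stem libraries lay below all others, and progenitor library 1 reached the lowest niche library. Ramp1 was lower in stem than in progenitor libraries by -1.99 ± 0.43 (adjusted p = 0.00858) and than in niche libraries by -3.58 ± 0.43 (adjusted p = 2.6e-05), under every alternative. The difference between progenitor and niche, -1.59 ± 0.43 (adjusted p = 0.0254), was not called without progenitor library 2 (0.0675), 3 (0.0927) or 4 (0.0907), nor without TMM scaling (0.0962).

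Gabbr1 (chromosome 17, 37045966-37075067), the subunit of the GABA-B receptor that binds the transmitter, was at 2.91, 2.57, 3.90 and 1.40 RPKM in the stem, 12.8, 8.01, 8.72 and 9.15 in the progenitor and 17.3, 38.9, 42.7 and 24.2 in the niche libraries. The 3 groups did not overlap. Gabbr1 was lower in stem than in niche libraries by -3.06 ± 0.43 (adjusted p = 9.8e-05). It was lower in stem than in progenitor libraries by -1.56 ± 0.43 (adjusted p = 0.0378), a call lost without any 1 of the 8 libraries of the pair (0.0553 to 0.137) and without TMM scaling (0.0736). The call between progenitor and niche libraries (-1.51 ± 0.43, adjusted p = 0.0323) was lost without progenitor library 2 (0.102), 3 (0.0977) or 4 (0.0907), without niche library 2 (0.0536) or 3 (0.0561), and without TMM scaling (0.198). With only the 2 groups in the fit (0.0781) or a pseudocount of 0.1 RPKM (0.0536) that call was lost as well.

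Gpr75 (chromosome 11, 30885358-30893729) was at 1.83, 0.805, 1.36 and 2.04 RPKM in the stem, 5.84, 5.12, 4.11 and 8.65 in the progenitor and 8.76, 11.2, 12 and 7.49 in the niche libraries. It was lower in stem than in niche libraries by -2.12 ± 0.42 (adjusted p = 0.00179). The stem libraries also lay below the progenitor libraries (-1.45 ± 0.42, adjusted p = 0.0459), but this call was lost without any 1 of the 8 libraries of the pair (0.0807 to 0.165), without TMM scaling (0.06) and with either other pseudocount (0.0513 and 0.0645). Exons of Gpr75 overlap those of Asb3 on the same strand, so reads of this pair are uncertain.

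Besides Ptafr, Gpr65, Gpr160 and Chrm4, a pair of receptor genes was higher in stem than in niche libraries, both at low levels. Adgrd1, an adhesion receptor, was at 2.07, 0.495, 2.79 and 2.34 RPKM in the stem, 0.0525, 0.758, 0.891 and 1.13 in the progenitor and 0.141, 0.0151, 0.038 and 0.036 in the niche libraries, the last from 1 to 3 reads each. Every stem library lay above every niche library, and the difference was 1.38 ± 0.36 (adjusted p = 0.0132). Drd2, the Gi-coupled D2 dopamine receptor, was at 2.73, 1.79, 0.341 and 2.43 RPKM in the stem, 0.0631, 0.574, 0.553 and 0.546 in the progenitor and 0, 0, 0.617 and 0 in the niche libraries. Stem library 3 lay below niche library 3. The Drd2 difference of 1.22 ± 0.37 (adjusted p = 0.0277) was lost without stem library 1 (0.0819), 2 (0.0558) or 4 (0.0805) and without niche library 2 (0.0585) or 4 (0.0599).

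Of the 14 tested receptors for transmitters and neuropeptides that the rule took in, 6 were lower in stem than in niche libraries (Npy1r, Chrm1, Gabbr1, Grm7, Grm5 and Oprl1). Another 2 were higher (Chrm4 and Drd2) and 6 were not called, beside 17 lower and 6 higher of all 53 receptor genes. Of all genes tested, 10.7% were lower and 10.9% higher in stem. Between progenitor and niche libraries 6 of the 14 were lower, 1 was higher and 7 were not called. Beside this stood 16 lower and 1 higher of the 53, and 5.78% lower and 5.68% higher of all genes. Npy1r, the Y1 receptor for neuropeptide Y, was at 1.86, 0.517, 0.0439 and 0.647 RPKM in the stem, 2.80, 2.10, 1.60 and 1.14 in the progenitor and 22.5, 26.1, 55.2 and 49.0 in the niche libraries. All niche libraries lay far above the others, and the differences were -4.47 ± 0.47 for stem (adjusted p = 8.8e-06) and -3.69 ± 0.47 for progenitor libraries (adjusted p = 0.0001). Chrm1, the Gq-coupled M1 muscarinic receptor, was at 1.92, 0.0675, 1.31 and 0.126 RPKM in the stem, 0.0801, 0.0800, 0.715 and 0.473 in the progenitor and 14.2, 23.6, 49.5 and 29.4 in the niche libraries. The niche libraries were again separate, with differences of -4.03 ± 0.50 for stem (adjusted p = 3.5e-05) and -4.39 ± 0.50 for progenitor libraries (adjusted p = 4.2e-05). Of the muscarinic receptor genes, Chrm1 was thus called higher in niche and Chrm4 higher in stem libraries.

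The metabotropic glutamate receptors in the set were Grm7, which is Gi-coupled and presynaptic, and Grm5, which is Gq-coupled. Grm7 was at 0.0308 to 0.606 RPKM in the stem, 0.0171 to 1.27 in the progenitor and 2.67, 9.65, 6.25 and 3.87 in the niche libraries, with differences of -2.37 ± 0.43 for stem (adjusted p = 0.00096) and -1.95 ± 0.43 for progenitor libraries (adjusted p = 0.00812). With only the 2 groups in the fit the latter was not called (0.0513). Grm5 was at 0.161 to 1.37 RPKM in the stem, 0.117 to 1.76 in the progenitor and 0.550, 40.1, 56.5 and 32.4 in the niche libraries. Niche library 1 lay within the range of the other groups and the other 3 far above it. Grm5 was called lower in stem (-3.41 ± 0.87, adjusted p = 0.0107) and in progenitor libraries (-3.34 ± 0.87, adjusted p = 0.0213) than in niche libraries. The progenitor call was lost without progenitor library 1 (0.0518), 2 (0.0513) or 3 (0.0520) and without niche library 2 (0.0528) or 3 (0.0544). With only the 2 groups in the fit that call was lost as well (0.065). Gpr158, a class C receptor abundant in neurons, was at 0.00996 to 0.548 RPKM in the stem, 0.0435 to 0.147 in the progenitor and 12.1, 5.56, 11.3 and 3.38 in the niche libraries. Its differences were -2.86 ± 0.41 for stem (adjusted p = 0.00011) and -2.91 ± 0.41 for progenitor libraries (adjusted p = 0.0002). Genes not analysed here overlap Chrm1, Grm7 and Gpr158 on the other strand.

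Oprl1, the receptor for the opioid-like peptide nociceptin, was at 0 to 1.12 RPKM in the stem, 0.281 to 6.90 in the progenitor and 0.216, 13.4, 22.7 and 16.8 in the niche libraries. As for Grm5 and Sstr1, niche library 1 stood with the other groups. Oprl1 was called lower in stem than in niche libraries (-2.87 ± 0.81, adjusted p = 0.02), a call lost without stem library 2 (0.0546) or 4 (0.0549) or niche library 3 (0.0532). Adgrb2, an adhesion receptor of the brain angiogenesis inhibitor family, was at 0.140 to 0.902 RPKM in the stem, 0.381 to 1.05 in the progenitor and 0.559, 6.57, 14.7 and 8.48 in the niche libraries. Its call against stem was lost without stem library 3 (0.0536) and with only the 2 groups in the fit (0.0501). Its call against progenitor libraries (adjusted p = 0.0494) was lost without any 1 of the other libraries except niche library 1 (0.0645 to 0.11), and without TMM scaling (0.081). The progenitor call was also lost with only the 2 groups in the fit (0.135), a pseudocount of 0.1 RPKM (0.107), no filter (0.0696) or voom (0.0515).

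Summed markers of mature neurons, 10 listed genes, reached 39.4 to 67.1 RPKM in the stem, 235 to 417 in the progenitor and 250, 583, 916 and 713 in niche libraries 1 to 4. Of the 10 tested, 8 were lower in stem and 5 in progenitor than in niche libraries. The 5 became 3 without niche library 3 or 4 or progenitor library 1 or 2, where Calb1 (adjusted p = 0.0562 to 0.063) and Nefl (0.0598 to 0.0671) were not called, and the 8 became 5 without TMM scaling. Syp and Gad1 were each not called between stem and niche without niche library 2, 3 or 4 or stem library 2, 3 or 4 (0.0759 to 0.0949 and 0.0644 to 0.0959). Niche library 1 had the lowest neuron marker sum of its group and the lowest level of Grm5, Grm7, Oprl1, Sstr1, Adgrb2, Npy1r and Chrm1, but the highest of Gpr158. The part of the marker genes' cells in the receptor differences was not tested. Without niche library 1, receptor genes called against the niche went from 23 to 32 for stem and from 17 to 25 for progenitor libraries, while the calls over all genes went from 1806 to 2489 and from 958 to 1641.

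**Figure D3:**
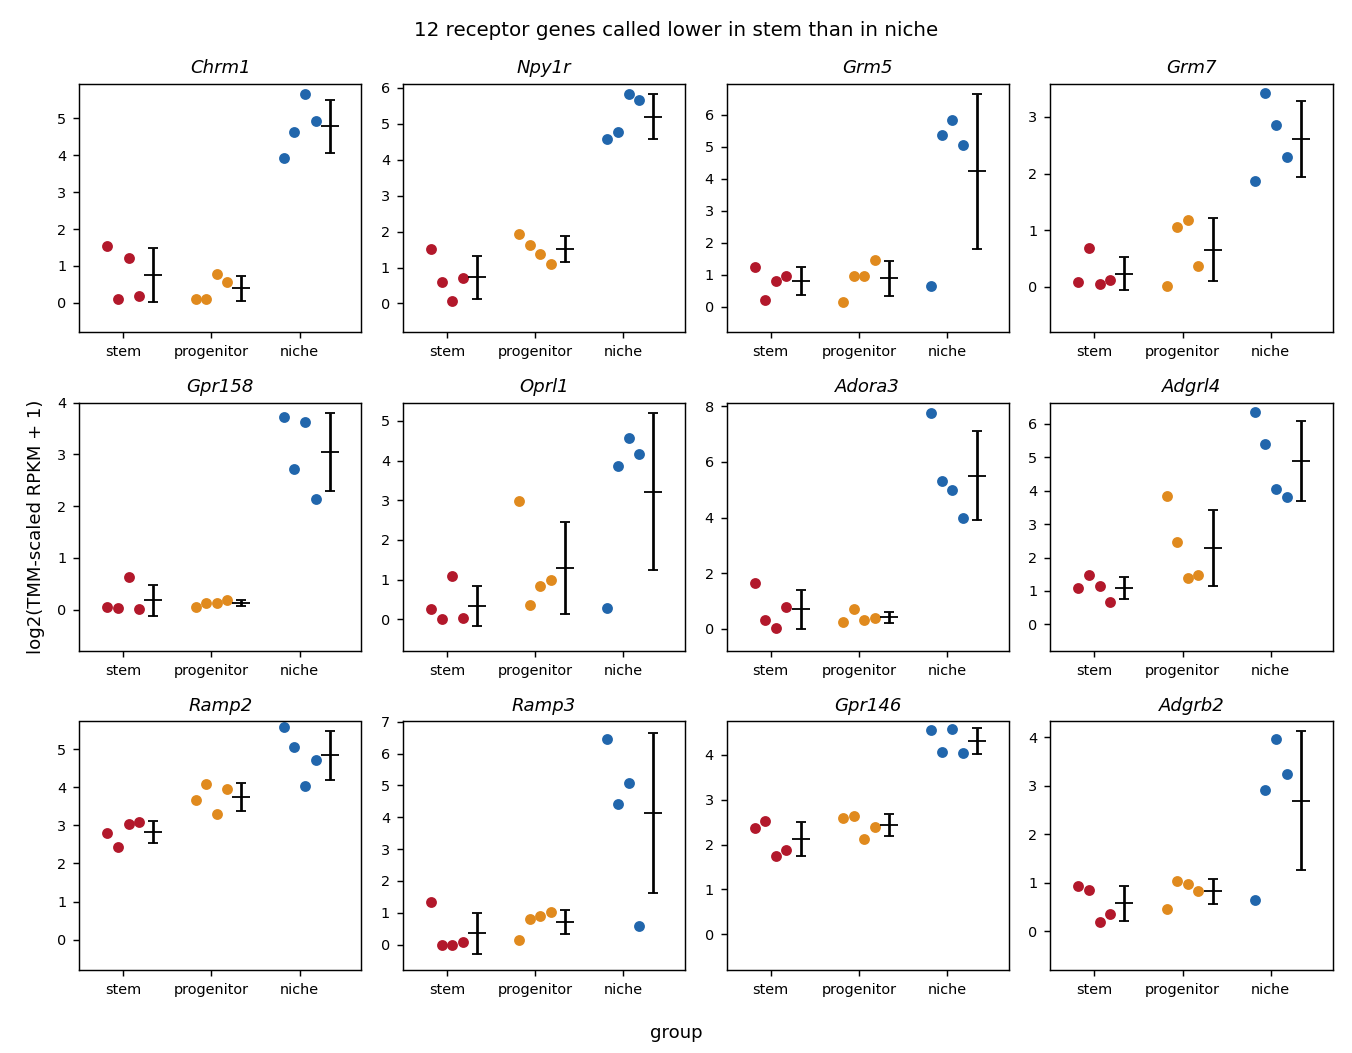
The 12 receptor genes called lower in stem than in niche libraries that were not called between stem and progenitor libraries, 1 panel a gene, with log2(TMM-scaled RPKM + 1) on the vertical axis and the 3 groups on the horizontal axis. Points are libraries in the order of their replicate numbers and bars the mean ± SD of the log2 values (n = 4); the first niche point lies at the level of the other groups for Grm5, Oprl1 and Adgrb2, and the fourth for Ramp3.

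Adora3, the Gi-coupled A3 adenosine receptor, was at 2.12, 0.255, 0.0278 and 0.736 RPKM in the stem, 0.186, 0.627, 0.237 and 0.312 in the progenitor and 213, 38.9, 30.8 and 14.9 in the niche libraries. Every niche library lay above all others, and the differences were -4.81 ± 0.66 for stem (adjusted p = 8.9e-05) and -5.10 ± 0.66 for progenitor libraries (adjusted p = 0.00011). Exons of Adora3 overlap those of Tmigd3 on the same strand, so reads of this pair are uncertain. In Adora3 the stem libraries overlapped the progenitor libraries (0.29 ± 0.66, adjusted p = 0.913). Summed microglia and macrophage markers were at 2372 to 9404 RPKM in the stem, 128 to 277 in the progenitor and 3354 to 5794 in the niche libraries. Their part in the Adora3 differences was not tested.

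Adgrl4, an adhesion receptor of endothelial cells, was at 1.12, 1.78, 1.21 and 0.589 RPKM in the stem, 13.3, 4.51, 1.61 and 1.79 in the progenitor and 80.3, 40.9, 15.5 and 12.9 in the niche libraries. It was lower than in niche libraries by -3.80 ± 0.64 in stem (adjusted p = 0.00054) and by -2.60 ± 0.64 in progenitor libraries (adjusted p = 0.0162). The latter call was lost without progenitor library 3 (0.0631) or 4 (0.0615) and with only the 2 groups in the fit (0.0537). Summed endothelial markers, 7 listed genes, reached 18 to 56.6 RPKM in the stem, 64.8 to 117 in the progenitor and 201 to 1055 in the niche libraries, highest in niche library 1, as was Adgrl4, and their part in the result was not tested.

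Ramp2 and Ramp3, which with the calcitonin receptor-like receptor form receptors for adrenomedullin, were also called lower in stem than in niche libraries. Calcrl, the gene of that partner receptor, fits the rule but was not found among the listed genes, so its level is not known here. Ramp2 was at 5.94, 4.44, 7.13 and 7.45 RPKM in the stem, 11.6, 16.1, 8.75 and 14.5 in the progenitor and 46.5, 32.4, 15.4 and 25.2 in the niche libraries. The stem libraries lay below all others (-2.01 ± 0.42 against niche, adjusted p = 0.00281). Ramp2 exons overlap those of Vps25 on the same strand. Ramp3 was at 1.51, 0, 0 and 0.0546 RPKM in the stem, 0.119, 0.75, 0.849 and 1.03 in the progenitor and 87.7, 20.5, 32.6 and 0.491 in the niche libraries, where library 4 stood with the other groups. Ramp3 was lower in stem by -3.78 ± 0.90 (adjusted p = 0.00697) and in progenitor libraries by -3.42 ± 0.90 (adjusted p = 0.0226). The progenitor call was lost without progenitor library 1 (0.0522), 2 (0.0534) or 3 (0.0524) or niche library 3 (0.0532). With only the 2 groups in the fit (0.0655), a pseudocount of 0.1 RPKM (0.0555) or voom (0.0504) that call was lost as well. All 3 Ramp genes were therefore called lower in stem than in niche libraries, and Ramp1 and Ramp3 lower in progenitor libraries.

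Gpr146, an orphan receptor, was lower in both GFP-positive groups than in the niche libraries. It was at 4.17, 4.78, 2.33 and 2.7 RPKM in the stem, 5.05, 5.26, 3.35 and 4.22 in the progenitor and 22.4, 15.7, 22.8 and 15.6 in the niche libraries. No niche library overlapped another group, and the differences were -2.18 ± 0.40 for stem (adjusted p = 0.00112) and -1.87 ± 0.40 for progenitor libraries (adjusted p = 0.00664), under every alternative.

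**Figure D4:**
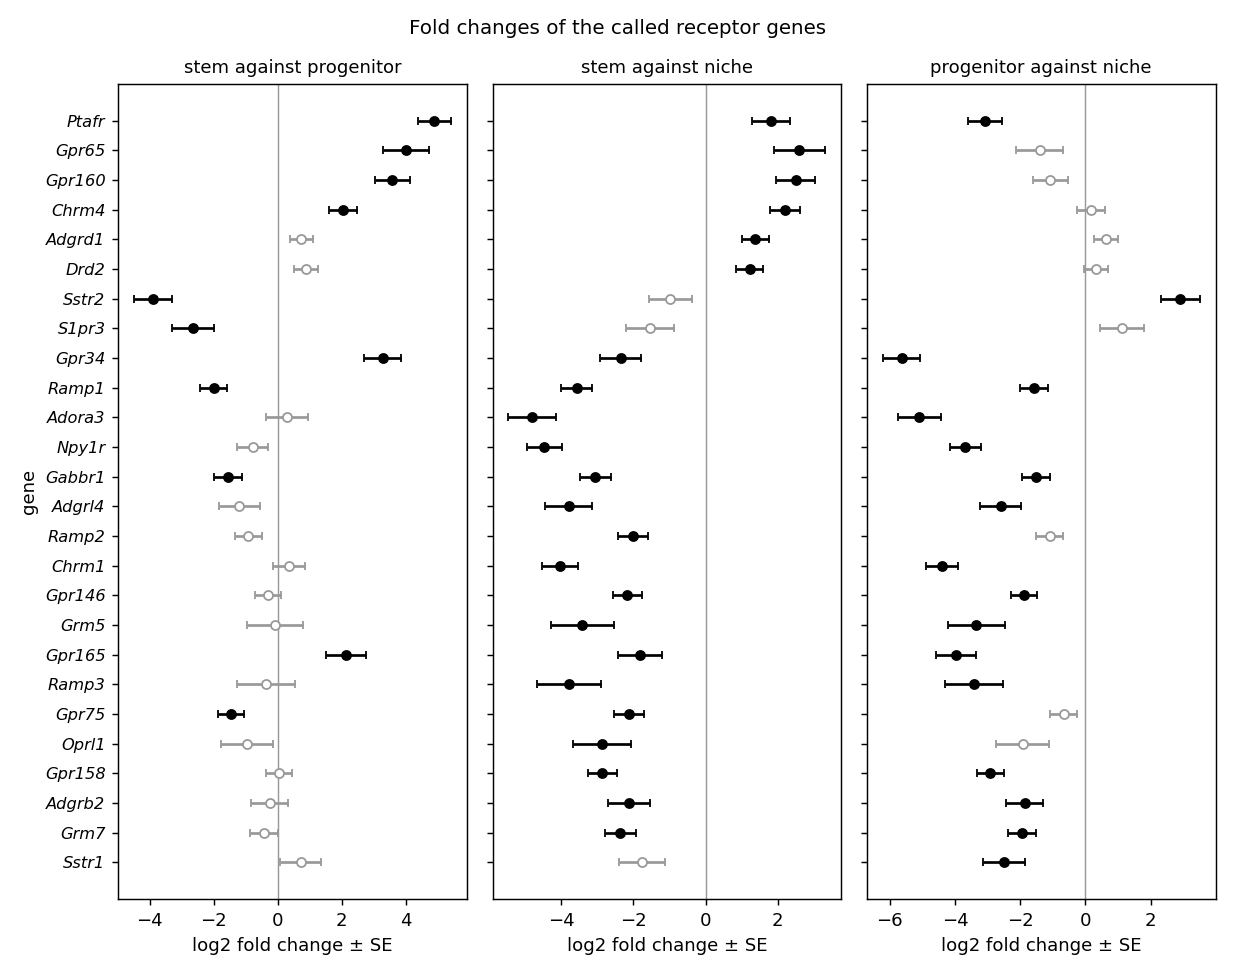
Log2 fold changes with their standard errors (horizontal axis, differences of log2(TMM-scaled RPKM + 1)) of the 26 called receptor genes (vertical axis) in the 3 comparisons; filled black points were called (limma adjusted p below 0.05) and open grey points were not. Gpr34 and Gpr165 lie right of 0 against progenitor and left of 0 against niche libraries, while Ramp1 and Gabbr1 lie left of 0 in all 3 comparisons.

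Among the 27 tested receptor genes that were not called in any comparison, Adgrg1 had by far the highest level. This adhesion receptor of neural precursors and microglia was at 259 ± 82.4 RPKM (SD, n = 4) in the stem, 238 ± 55.8 in the progenitor and 199 ± 40.1 in the niche libraries, with differences of at most 0.34 on the log2 scale and overlapping ranges. Of the 11 tested adhesion receptors, none was called between stem and progenitor libraries, where 7.11% of all genes tested were. Adgrl1, Adgrl3, Adgra1 and Adgrb1 averaged 1.27 to 10.1 RPKM in the stem and progenitor and 3.60 to 22.9 in the niche libraries, where library 1 was lowest for Adgrl1, Adgra1 and Adgrb1. Adgrf5 averaged 0.672, 1.34 and 4.15 RPKM in stem, progenitor and niche libraries, and Adgrg2 and Adgre4 at most 1.57 in any group.

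The receptors for monoamines that were not called were Drd3, Htr1a, Htr5a and Adra1a. Drd3 averaged 1.66 ± 1.34 RPKM in the stem, 3.10 ± 2.57 in the progenitor and 0.107 ± 0.117 in the niche libraries (progenitor against niche 1.63, adjusted p = 0.0595). Htr1a, the 5-HT1A serotonin receptor, was at 8.78 and 8.69 RPKM in niche libraries 3 and 4 and at most 1.13 in the other 10 libraries. Htr5a and Adra1a, the latter an adrenergic receptor, averaged at most 1.23 and 2.04 RPKM. Of the adenosine receptors, Adora2a read 0 to 0.0800 RPKM in the stem and 0.379 to 2.27 in the progenitor libraries, which did not overlap but did not pass the test (adjusted p = 0.402), and Adora2b ranged from 0.0366 to 17.6 RPKM with all groups overlapping. P2ry1, a receptor for ADP, averaged 2.34, 2.36 and 2.24 RPKM in stem, progenitor and niche libraries.

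Several receptor genes that were not called had stem and progenitor libraries that did not overlap. In this comparison all stem libraries lay above all progenitor libraries for 11 tested receptor genes and below for 8, against 11.5% and 13.2% of all genes tested. Against the niche the stem libraries were all above for 5 and all below for 11 (12.3% and 10.4% of all genes), and the progenitor libraries all above for 2 and all below for 10 (8.79% and 6.81%). Gprc5c, a class C orphan receptor, was at 8.56, 22.6, 7.40 and 7.90 RPKM in the stem and 4.51, 3.22, 2.43 and 3.51 in the progenitor libraries (1.39, adjusted p = 0.215). Ptger1, a receptor for prostaglandin E2, was at 3.36 to 5.44 RPKM in the stem and 1.35 to 1.81 in the progenitor libraries (0.92, adjusted p = 0.371). Gpr157 was at 1.90 to 12.5 RPKM in the stem and 0.311 to 1.10 in the progenitor libraries (1.57, adjusted p = 0.111). Gpr45 was lower in every stem library (5.38 to 10.2 RPKM) than in the progenitor libraries (11.3 to 13.5), with a difference of -0.54 (adjusted p = 0.713). With only the 2 groups in the fit, Gprc5c, Gpr157, Ptger1, Adora2a and Ramp2 were called between stem and progenitor libraries as well.

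Other orphan receptors that were not called included Gpr39, Gpr107, Gpr137c, Gpr143, Gpr153, Gpr180 and Gpr21. Gpr39 averaged 5.57 RPKM in the stem, 6.76 in the progenitor and 39.4 in the niche libraries, where it was at 0.827 in library 1 and 40.9 to 63.2 in the other 3. Gpr107 averaged 7.25, 6.50 and 7.00 RPKM and Gpr180 4.02, 2.40 and 3.39 RPKM in stem, progenitor and niche libraries. Gpr143 reached 13.4 RPKM in progenitor library 1 and at most 5.50 elsewhere, and Gpr137c and Gpr21 averaged at most 2.17 RPKM in any group. Gpr21 shares exon sequence with Rabgap1 on the same strand and Gpr39 with Lypd1 on the other, so these levels are uncertain. The deposited length of Gpr153 was 219 bases, 5.6% of its annotated exons, so its level is not set beside those of other genes. The 10 receptor genes below the filter were Adgra2, Adgrg3, Drd4, Fpr2, Gpr161, Gpr35, Gpr83, Htr4, P2ry10b and Sstr4. Fpr2, a formyl peptide receptor of myeloid cells, was at 3.02, 13.1, 0 and 1.47 RPKM in the stem, at most 0.291 in the progenitor and 0 in all 4 niche libraries. Gpr83 was at 81.1 RPKM in niche library 1 and at most 1.07 in the other 11. Neither was tested.

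**Figure D5:**
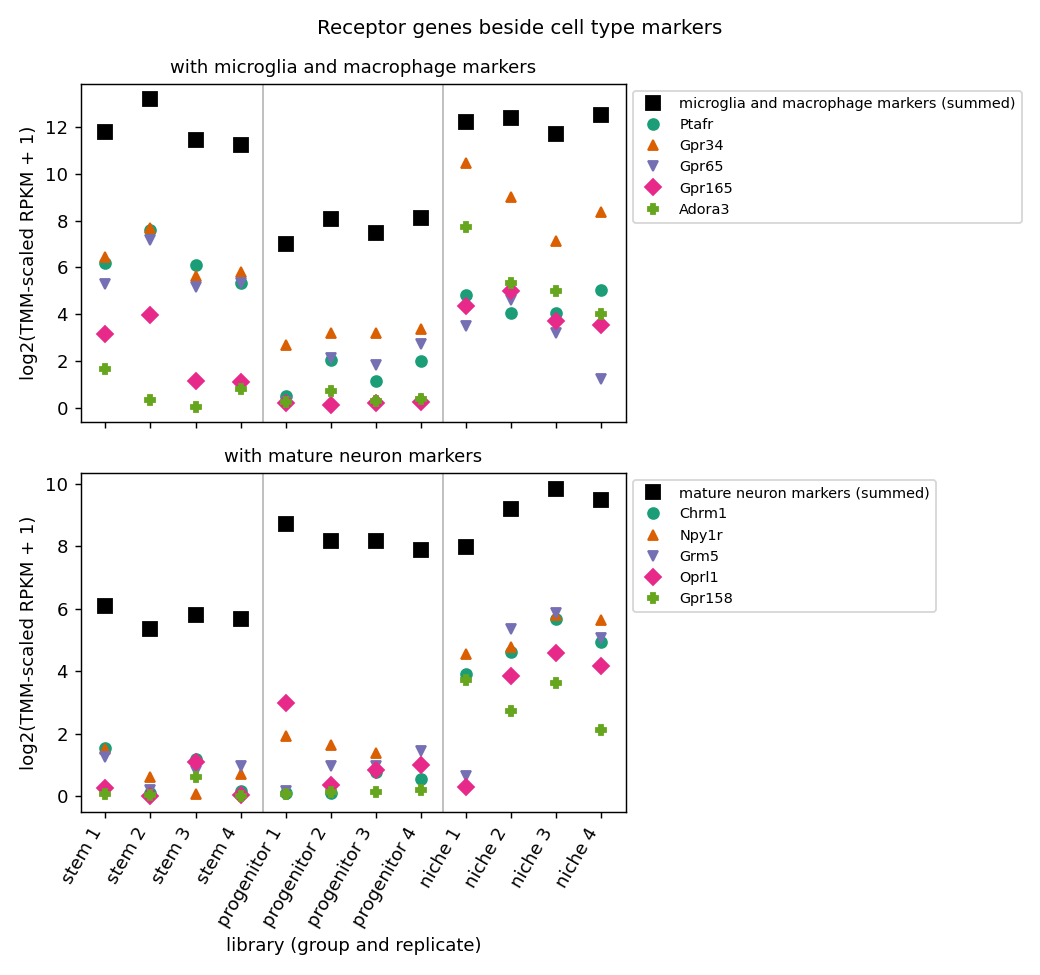
Level of 5 receptor genes beside the summed markers of microglia and macrophages (top) and of 5 others beside the summed markers of mature neurons (bottom), as log2(TMM-scaled RPKM + 1) on the vertical axis in each of the 12 libraries on the horizontal axis; black squares are the marker sums. In the upper panel Ptafr, Gpr34 and Gpr65 are low where the marker sum is low, in the 4 progenitor libraries, whereas Adora3 is high in the niche libraries alone; in the lower panel Grm5 and Oprl1 are low in niche library 1.

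Genes of the proteins that receptors act through were drawn from lists of signalling genes. Of 7 tested G alpha subunit genes, Gna14, a subunit of the Gq family, was higher in stem than in progenitor (1.71 ± 0.39, adjusted p = 0.0117) and niche libraries (1.76 ± 0.39, adjusted p = 0.00398), and Gnas, which encodes Gs alpha, was lower in stem than in niche libraries (-1.26 ± 0.26, adjusted p = 0.0023), though not without TMM scaling (0.115). Gna14 averaged 2.93 ± 1.87 RPKM in the stem, 0.0703 ± 0.112 in the progenitor and 0.0295 ± 0.0441 in the niche libraries. Among 9 tested G beta and gamma genes, Gng11 was lower in stem than in progenitor (-2.81 ± 0.69, adjusted p = 0.0195) and niche libraries (-3.72 ± 0.69, adjusted p = 0.00112). Its progenitor call was lost without progenitor library 1 (0.0886) or stem library 3 (0.059) or 4 (0.0676), and with voom (0.113). Gngt2 was lower than in niche libraries in stem (-4.04 ± 0.56, adjusted p = 9.5e-05) and progenitor libraries (-5.74 ± 0.56, adjusted p = 1.3e-05), and Gng13 lower in progenitor than in niche libraries (-2.42 ± 0.66, adjusted p = 0.026), a call lost without progenitor library 2 (0.0552) and without TMM scaling (0.0635). With only the 2 groups in the fit (0.0854) or voom (0.0812) the Gng13 call was lost as well.

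Of 7 tested regulators of G protein signalling, Rgs5, which is also a marker of pericytes, was lower in stem than in progenitor (-3.57 ± 0.60, adjusted p = 0.00166) and niche libraries (-3.78 ± 0.60, adjusted p = 0.00031), and Rgs16 was higher in stem than in niche libraries (1.45 ± 0.46, adjusted p = 0.036). The Rgs16 call was lost without stem library 1 (0.101), 2 (0.0526) or 4 (0.0832), progenitor library 3 (0.0537) or 4 (0.0528), or niche library 1 (0.0599), 2 (0.0826) or 3 (0.0641). Summed mural cell markers, of which Rgs5 is 1 of 5 listed, reached 11.8 to 185 RPKM in the stem, 669 to 1643 in the progenitor and 559 to 1768 in the niche libraries, and their part was not tested. None of the 5 tested receptor kinases and arrestins was called in any comparison. Of all genes tested, 7.11% were called between stem and progenitor, 21.6% between stem and niche and 11.5% between progenitor and niche libraries. Of 10 adenylyl cyclases and cyclic AMP phosphodiesterases, Adcy1, a calcium-stimulated cyclase of neurons, was lower than in niche libraries in stem (-3.20 ± 0.66, adjusted p = 0.00263) and progenitor libraries (-3.50 ± 0.66, adjusted p = 0.00252). Of 4 phospholipase C genes, Plcb1 was lower in stem than in niche libraries (-1.47 ± 0.43, adjusted p = 0.0236), a call lost without stem library 1 (0.0695), 2 (0.0639) or 4 (0.0562) and without TMM scaling (0.136).

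Of 12 tested genes for receptor ligands or the enzymes that make or break them down, 3 were higher and 2 lower in stem than in progenitor libraries. Over all genes tested the shares were 3.71% and 3.4%. Hpgd, which inactivates prostaglandins, was higher in stem by 4.48 ± 0.63 (adjusted p = 0.00045), Ptgs1, the cyclooxygenase that starts prostaglandin synthesis, by 3.60 ± 0.51 (adjusted p = 0.00048) and Entpd1, an ectonucleotidase that degrades ATP and ADP, by 2.77 ± 0.79 (adjusted p = 0.0452). The Entpd1 call was lost without any 1 of the 8 libraries of the pair (0.0518 to 0.179) and without niche library 3 (0.0584) or 4 (0.0529). In stem library 2, where the summed microglia and macrophage markers were also highest, Hpgd, Ptgs1 and Entpd1 were at 413, 129 and 100.2 RPKM, the highest of their group. Those marker sums were at 128 to 277 RPKM in the progenitor libraries, where Hpgd was at 1.92 to 13.3, Ptgs1 at 0.758 to 5.69 and Entpd1 at 3.17 to 4.52, and their part in these differences was not tested. Entpd2, an ectonucleotidase that acts mainly on ATP, went the other way. It was at 17.4, 9.42, 9.03 and 14.5 RPKM in the stem, 106, 185, 161 and 196 in the progenitor and 28.9, 34.9, 43.7 and 50.9 in the niche libraries, and the 3 groups did not overlap. Entpd2 was lower in stem than in progenitor libraries by -3.59 ± 0.33 (adjusted p = 2.5e-05) and than in niche libraries by -1.60 ± 0.33 (adjusted p = 0.00287, and 0.109 without TMM scaling), and higher in progenitor than in niche libraries by 2.00 ± 0.33 (adjusted p = 0.00095). Edn3, the peptide endothelin 3, was also lower in stem than in progenitor libraries (-2.62 ± 0.73, adjusted p = 0.0389), a call lost without stem library 1 (0.113), 3 (0.0988) or 4 (0.111), any 1 progenitor library (0.0538 to 0.136) or niche library 3 (0.0521). Npy, the ligand of the Y1 receptor, was lower in stem than in niche libraries (-2.56 ± 0.88, adjusted p = 0.0486), as was its receptor gene Npy1r. The Npy call was lost without any 1 of the libraries other than niche library 1 (0.0532 to 0.14) and without TMM scaling (0.0867). Ptgs1, Hpgd and Ptgs2 were lower in progenitor than in niche libraries by -4.30 ± 0.51, -3.33 ± 0.63 and -1.79 ± 0.54 (adjusted p = 6.3e-05, 0.00256 and 0.0436). The Ptgs2 call was lost without any 1 progenitor library (0.0741 to 0.106), niche library 2, 3 or 4 (0.0663 to 0.0998) or stem library 1, 3 or 4 (0.0532 to 0.0598).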

How the data were processed

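RNA-seq of 12 libraries, 4 in each of 3 sorted groups, was analysed from the deposited table of 1 value per gene and library. The values behave as log2(RPKM + 1) as deposited by the authors. The build was GRCm38 (mm10), per the submitters' processing notes; how reads were aligned and counted, whether strand was used, and which genes were listed is not given in the sources used here. Whole reads were recovered from 100% of the values (within 0.0001 reads), and totals ran from 7597256 to 22854036 reads. Of 10749 listed genes, 8360 reached 10 reads per median library (0.767 CPM) in at least 4 libraries with at least 15 reads in total and were tested. RPKM was scaled by TMM, computed from the recovered reads, and log2(RPKM + 1) was fitted with limma 3.58.1 (R 4.3.3) with 1 mean per group over all 12 libraries and a moderated variance with a trend and robust settings. Benjamini-Hochberg adjustment ran over all genes tested, and a gene was called at an adjusted p below 0.05. Fold changes understate the change of low genes. The count test foreseen for raw reads was not used, since the deposited values are log2 values; voom on the recovered reads was an alternative.

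Receptor genes called in any comparison are described with values, the others by family, and from each signalling list at most 3 called genes per comparison; 1 receptor gene that was not called is not reported here. The receptor genes and all lists were chosen with earlier results of these data known. Each promoter is from RefSeq (GRCm38.p6), matched by symbol, and each position from GENCODE M21, matched by gene identifier. Alternatives were other pseudocounts (0.1 and 4 RPKM), no filter, library size scaling, voom, a replicate block, only the 2 groups compared, and leaving out libraries. The passages on single genes do not list every alternative under which a call was lost. The procedure was tested on simulated data.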

Additional observations from a re-analysis of the deposited data

Results flagged for a closer look

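In 78 groups of 4 libraries (26 called receptor genes in 3 groups), 8 held a library that stood apart from the other 3 by more than Dixon's 95% critical value on the log2 scale. Chance flags about 1 group in 20. Drd2, the D2 dopamine receptor, was low in progenitor library 1 at 0.0631 RPKM (others 0.546 to 0.574) and was detected in niche library 3 at 0.617 RPKM, with the other niche libraries at 0. Gpr65, the proton-sensing receptor, was high in stem library 2 at 143 RPKM (others 35.1 to 39.4). Gpr158, a neuronal class C receptor, was higher in stem library 3 at 0.548 RPKM (others 0.00996 to 0.0415). Grm7 stood at 0.606 RPKM in stem library 2 (others 0.0308 to 0.094), and Ramp3 at 1.51 RPKM in stem library 1 (others 0 to 0.0546). In niche library 1, Grm5, the glutamate receptor, was at 0.55 RPKM (others 32.4 to 56.5) and Oprl1, the nociceptin receptor, at 0.216 RPKM (others 13.4 to 22.7).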

How the results depend on the processing

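Across the 51 called results for receptor genes, 897 of 1018 values under the alternatives were still called, 121 were not and 0 changed direction, and 33 results were called under every alternative. The 11 receptor genes called between stem and progenitor became 7 to 12 when 1 library was left out, and the 17 between progenitor and niche became 10 to 25. With only the 2 groups in the fit the latter were 10 and those between stem and progenitor 16, and the cause was not tested. The 23 between stem and niche were 19 to 33 under all alternatives. Without progenitor library 1 and niche library 1 together, 11, 33 and 25 were called in the 3 comparisons.

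Counts over all genes moved by more than 1.5 times in several cases. Between stem and progenitor, 594 became 1421 with only the 2 groups in the fit, 1093 without niche replicate 1, 1116 without it and progenitor replicate 1, and 355 without stem replicate 2. Between stem and niche, 1806 became 2997 without those 2 libraries. Between progenitor and niche, 958 became 1839 with library size scaling (1525 higher and 314 lower), 1641 without niche replicate 1, 1986 without both, 539 with only the 2 groups, and 566, 535 and 544 without progenitor replicate 2, 3 or 4. The cause of these shifts was not tested.

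Libraries share replicate numbers across groups, but the pairing did not hold for every pair of libraries: correlations of their deviations from the group means ran from -0.128 to 0.0746 for stem and progenitor, from -0.0878 to 0.0362 for stem and niche and from 0.0295 to 0.206, all 4 above 0, for progenitor and niche. Not every library correlated best with its own number; 1, 1 and 2 of 4 did in these pairs of groups. With the replicate number as a block, 9, 23 and 15 receptor genes were called. Over all genes, 607, 1814 and 947 were then called, in place of 594, 1806 and 958. Receptor genes at few reads, such as Adgrd1, Chrm4 and Drd2 in niche libraries, lie at the limit of the depth.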
